A study of Mus musculus with 12 samples.

Results

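Liver neutrophils isolated 72 hours after carbon tetrachloride (CCl4) were compared with liver neutrophils isolated 24 hours after it. The comparison holds 9 of the 12 RNA-seq libraries of the series, chosen by tissue and time: 4 libraries of 24-hour neutrophils and 5 of 72-hour neutrophils. All mice were male C57BL/6N animals aged 8 to 10 weeks with no transgene. Each injured mouse received a single intraperitoneal dose of 1 mL/kg CCl4 diluted in corn oil. The other 3 libraries are control splenic neutrophils of untreated mice, so both liver groups share the toxin and the organ and differ in time. Cells were taken with anti-Ly6G beads and then sorted as Ly6Ghi Ly6Cint CD11b+ CD45+ cells. No label says that libraries of 1 group came from separate animals, so the p-values below measure only the spread between these libraries. The comparison asks what changed within the injured liver between 24 hours, in the necroinflammatory phase, and 72 hours, in the repair phase. It does so without the change of organ that a spleen control brings.

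CCl4 is turned into a radical by cytochrome P450 enzymes of the hepatocytes around the central vein, and these cells die within a day. Neutrophils enter the necrotic area early and release granule enzymes, oxidants and interleukin 1. The paper reports that their density in the liver then dropped, and that a distinct later wave followed during repair. The later libraries compared here come from that wave. The paper proposes separate recruitment events but does not exclude differentiation within the liver. Short-lived and poor in RNA, neutrophils carry few ribosomes, and their inflammatory genes are switched on by NF-kB, AP-1 and related factors.

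Between 1781445 and 2017564 reads per library were counted on genes in 24-hour neutrophils and between 1267089 and 3017403 in 72-hour neutrophils. These were 2.71 to 3.15% of the uniquely aligned reads, and 96.8 to 97.3% fell on no annotated gene. All 8 mature neutrophil markers were detected in every liver library, at a summed level of 1120 to 2610 CPM at 24 hours and 2032 to 2795 CPM at 72 hours (CPM, counts scaled by TMM to a common library size, where 1 CPM stood for 1.37 to 3.24 counts). Immature neutrophil markers summed to 17.5 to 78.8 CPM at 24 hours and 22.8 to 42.4 CPM at 72 hours. In 72-hour replicates 2 and 3 only 1.91% and 1.98% of reads were listed as unaligned, against 50.2 to 50.7% in the other 7 liver libraries. The first principal component of the liver libraries (26.3% of the variance) separated the times, with scores of -59.9 to -22.7 at 24 hours and 14.9 to 55.4 at 72 hours. The second (17.4%) set 72-hour replicates 4 and 5 apart, at 62.5 and 48.2 against -26.0 to -12.9 for the rest.

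A property of the counts bears on every gene below. Of the 12488 genes tested, 4972 share at least 1 exon base with a gene on the other strand (the annotation used was GENCODE M21 on GRCm38), 7485 share none and 31 could not be placed. The 4972 genes took 83.0 to 89.2% of all counts in the liver libraries. Among 623 antisense genes with a tested protein-coding partner, 566 stood above that partner in CPM per kilobase of exon at 24 hours, with medians of 58.3 and 1.51. The library kit keeps the strand and the strand option of the counting is not given in the sources used here, so reads of a gene and of its opposite-strand partner cannot be told apart. Which strand a listed value reports is therefore not known, for the genes without a partner as well. Values are therefore given under the name the count table lists, with the partner, and each call is also given with the genes that do and do not share exon bases scaled apart (class-wise scaling).

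In all, 561 genes passed the test at 72 against 24 hours (edgeR's quasi-likelihood test, Benjamini-Hochberg adjusted p below 0.05 and a log2 difference of at least 0.5), which is 4.49% of those tested. Of these, 206 rose (1.65%) and 355 fell (2.84%). The median log2 difference of all tested genes was 0.18. The plot of difference against level shows how the calls lay. Genes that fell were mostly counted high, with a median of 238 CPM at 24 hours, and genes that rose were mostly counted low, with a median of 6.96 CPM. Of the genes that rose, 43 had 3 counts or fewer in every 24-hour library, and of those that fell, 12 had 3 or fewer in every 72-hour library. All 24-hour libraries lay outside the range of the 72-hour libraries for 473 of the 561 genes, and the groups did not overlap for 9.51% of all tested genes. Single libraries moved the number of calls by more than 1.5 times: it was 178 without 24-hour replicate 1, 249 without 24-hour replicate 2, 312 without 72-hour replicate 1, 372 without 72-hour replicate 2 and 245 without 72-hour replicate 3. Without 72-hour replicates 2 and 3 together, 203 genes passed, 56 up and 147 down, and without 72-hour replicates 4 and 5 together, 854 passed, 332 up and 522 down. The direction of the calls moved with the scaling. Genes that rose made up 36.7% of the calls with TMM scaling, 25.6% of 614 calls with upper-quartile scaling and 91.9% of 1409 calls with scaling by library size alone, where the median of all genes was 0.61.

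**Figure D1:**
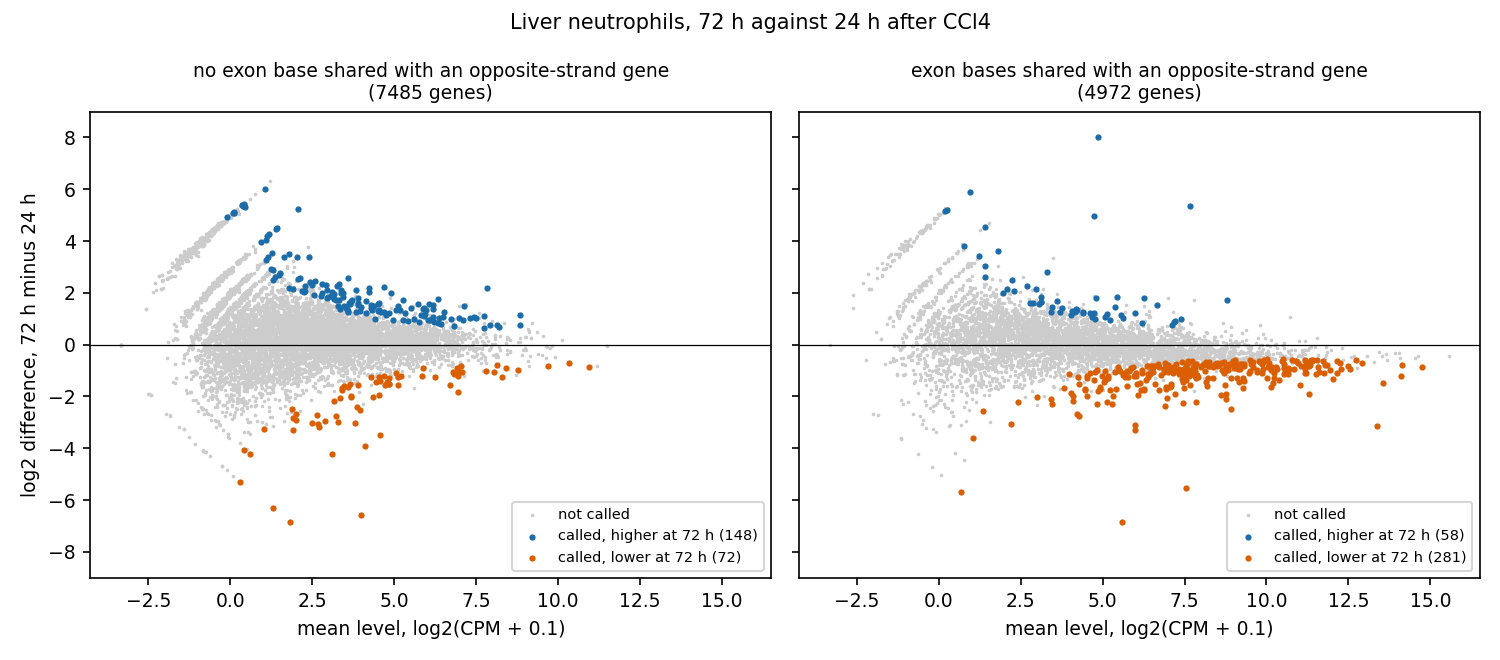
Log2 difference of 72-hour minus 24-hour neutrophils (vertical axes) against mean level as log2(CPM + 0.1) (horizontal axes), 1 point per tested gene, for genes that do not (left) and do (right) share exon bases with an opposite-strand gene, with called genes in colour. Genes without shared bases were called mostly upward (148 up, 72 down) and genes with shared bases mostly downward (58 up, 281 down).

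Both strand classes held calls in both directions. Genes without shared exon bases rose in 148 cases (1.98%) and fell in 72 (0.962%), with a median log2 difference of 0.30. Genes with shared exon bases rose in 58 cases (1.17%) and fell in 281 (5.65%), with a median of 0.01. Such genes were 39.8% of the tested genes, 28.2% of those that rose and 79.2% of those that fell. With class-wise scaling the split of the genes without shared bases turned, as 53 rose (0.708%) and 90 fell (1.20%). Genes with shared bases still fell more often than they rose, 166 (3.34%) against 128 (2.57%). Of the 561 calls, 345 were made in the same direction under class-wise scaling, 111 up and 234 down. The share of counts on genes without shared bases was 10.2 to 12.4% at 24 hours, 14.6 to 16.5% at 72 hours and 16.5 to 17.1% in control splenic neutrophils. Liver times did not overlap in this share, and its part in the calls beyond the class-wise values was not tested.

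Clec7a, Rcsd1, Trpm2 and Cxcr4 had the smallest p among the genes that rose without an opposite-strand exon. Clec7a encodes Dectin-1, the lectin by which neutrophils recognise fungal beta-glucan (chr6:129461591-129472779, minus strand). It was counted at 53.0, 73.8, 91.2 and 78.8 CPM in 24-hour neutrophils and at 130, 192, 223, 251 and 239 CPM in 72-hour neutrophils. Every 72-hour library stood above every 24-hour library, and control splenic neutrophils held 139 to 145 CPM. The difference was 1.48 ± 0.23 (log2 ± SE, edgeR adjusted p = 0.00144, class-wise 0.0113). Cxcr4 encodes the receptor for CXCL12, which holds neutrophils in bone marrow and returns aged ones to it (chr1:128588199-128592293, minus strand). Its 24-hour values were 18.9, 19.8, 66.5 and 41.6 CPM and its 72-hour values 117, 106, 193, 84.1 and 126 CPM, a difference of 1.78 ± 0.33 (edgeR adjusted p = 0.00438, class-wise 0.013). Again no library overlapped, although 24-hour replicates 3 and 4 were above replicates 1 and 2. Spleen libraries held 50.7 to 58.0 CPM of Cxcr4. Trpm2, a calcium channel opened by oxidative stress (chr10:77907722-77970563, minus strand), went from 33.4, 39.6, 42.4 and 46.0 CPM to 81.3, 94.3, 88.8, 132 and 125 CPM (1.37 ± 0.24, edgeR adjusted p = 0.00301). The 3 genes passed in all 12 fits that each left out 1 library, with a largest adjusted p of 0.031 for Cxcr4 without 24-hour replicate 1.

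Bases upstream of the start of transcription are printed here for these genes and for Vipr1, Mdc1 and Mvd, which fell without an opposite-strand exon, to show the stretch searched for binding motifs. Sequences are the 250 bases before the first listed start in the RefSeq promoter table of GRCm38.p6, read 5′ to 3′ on the gene's strand, with any motif match in capitals. Clec7a (chr6:129472780-129473029, minus strand) held no match. Trpm2 (chr10:77969873-77970122, minus strand) held 1 hypoxia core, ACGTG, on the other strand. The Trpm2 window lies within the gene span given above, so its listed start is not the outermost start of that annotation. Cxcr4 (chr1:128592300-128592549, minus strand) held 1 C/EBP-type match and 1 EGR match.
Clec7a: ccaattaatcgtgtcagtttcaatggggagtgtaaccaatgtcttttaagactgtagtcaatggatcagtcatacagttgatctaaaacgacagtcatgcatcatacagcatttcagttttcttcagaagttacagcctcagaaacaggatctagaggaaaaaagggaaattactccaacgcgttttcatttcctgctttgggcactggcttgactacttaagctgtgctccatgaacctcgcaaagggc
Trpm2: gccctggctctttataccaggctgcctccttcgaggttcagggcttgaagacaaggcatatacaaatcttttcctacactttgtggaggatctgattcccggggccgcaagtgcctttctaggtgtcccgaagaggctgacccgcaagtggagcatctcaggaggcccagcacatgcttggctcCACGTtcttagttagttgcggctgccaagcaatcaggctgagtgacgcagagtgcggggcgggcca
Cxcr4: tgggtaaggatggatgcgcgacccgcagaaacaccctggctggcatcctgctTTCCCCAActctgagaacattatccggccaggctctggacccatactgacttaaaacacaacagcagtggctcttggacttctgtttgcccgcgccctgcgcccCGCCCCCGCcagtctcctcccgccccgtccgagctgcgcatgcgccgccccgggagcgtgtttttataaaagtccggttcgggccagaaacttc
Of the genes that fell, 4933423P22Rik and Gm16015 had smaller p and are not printed. Those printed are Vipr1 (chr9:121642466-121642715, plus strand) with no match, Mdc1 (chr17:35841248-35841497, plus strand) with 1 C/EBP-type match and Mvd (chr8:122443423-122443672, minus strand) with no match.
Vipr1: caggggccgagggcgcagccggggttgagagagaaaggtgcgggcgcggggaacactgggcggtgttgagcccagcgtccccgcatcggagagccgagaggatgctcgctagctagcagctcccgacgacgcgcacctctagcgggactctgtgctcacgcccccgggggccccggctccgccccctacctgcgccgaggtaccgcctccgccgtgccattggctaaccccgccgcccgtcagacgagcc
Mdc1: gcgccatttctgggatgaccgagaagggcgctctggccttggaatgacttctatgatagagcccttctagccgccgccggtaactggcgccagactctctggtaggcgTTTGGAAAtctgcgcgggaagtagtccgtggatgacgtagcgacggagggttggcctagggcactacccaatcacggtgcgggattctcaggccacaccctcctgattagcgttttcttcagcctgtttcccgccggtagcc
Mvd: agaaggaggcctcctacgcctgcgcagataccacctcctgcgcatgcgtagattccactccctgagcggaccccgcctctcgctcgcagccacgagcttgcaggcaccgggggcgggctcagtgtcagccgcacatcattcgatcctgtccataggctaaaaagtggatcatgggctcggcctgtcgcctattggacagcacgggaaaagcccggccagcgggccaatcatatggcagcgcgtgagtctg

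Motif counts were read over both strands of such windows for the 115 genes that rose and the 34 that fell without shared exon bases and that the promoter table holds. The cyclic AMP response element TGACGTCA was in 7 windows of genes that rose (6.09%) and in 0 of those that fell, against 2.67% of 8200 tested genes and 1.62% of all 27025 promoters. The AP-1 letters TGANTCA stood in 6.09% and 2.94%, against 4.59% of tested genes and 6.87% of all promoters. NF-kB motifs stood in 7.83% and 8.82%, against 8.59% and 7.01%. The C/EBP-type letters TTNCNNAA were in 31.3% of the windows of genes that rose and in 50% (17 windows) of those that fell, against 29.0% of tested genes and 36.9% of all promoters. EGR letters, GCGNGGGCG, stood in 9.57% and 2.94%, against 8.45% and 4.65%. Hypoxia cores, ACGTG, stood in 20% and 11.8%, against 22.2% and 16.6%, and CArG boxes in 0.870% and 0%, against 1.11% and 1.40%. The cyclic AMP response element contains no other motif searched, and matches of different motifs may overlap. These are descriptions of letters in a window and not of bound sites.

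Ptgs2 and Il1b, which encode an enzyme and a cytokine of inflammation, were counted higher at 72 hours. Ptgs2 encodes cyclooxygenase 2, the inducible enzyme of prostaglandin synthesis (chr1:150100031-150108227, plus strand). In 24-hour neutrophils it stood at 46.0, 37.2, 96.2 and 149 CPM, in 72-hour neutrophils at 259, 505, 739, 158 and 195 CPM. The lowest 72-hour library was just above the highest 24-hour library, and 72-hour replicates 2 and 3 were highest. Control splenic neutrophils held 2.17 to 5.57 CPM. The difference was 2.19 ± 0.43 (edgeR adjusted p = 0.00718, class-wise 0.012). Ptgs2 was 1 of 15 tested prostaglandin and leukotriene genes, and the only one of them called (6.67%, against 4.49% over all tested genes). Il1b, the interleukin 1 beta gene (chr2:129364570-129371139, minus strand), rose from 143, 175, 233 and 279 CPM to 559, 686, 1273, 406 and 467 CPM (1.71 ± 0.29, edgeR adjusted p = 0.00223), against 134 to 177 CPM in spleen. It shares 25 exon bases with Il1bos on the other strand. Il1bos was counted at 1412 to 3059 CPM at 24 hours and 2090 to 2706 CPM at 72 hours, with a difference of 0.13 (adjusted p = 0.764). Per kilobase of exon, Il1bos held 734 and Il1b 109 CPM at 24 hours, and 805 and 356 CPM at 72 hours. Which of the pair's values follows the Il1b messenger RNA cannot be told apart. Il1b passed without each library in turn. The call of Ptgs2 held without each single library but was lost without 72-hour replicates 2 and 3 together.

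**Figure D2:**
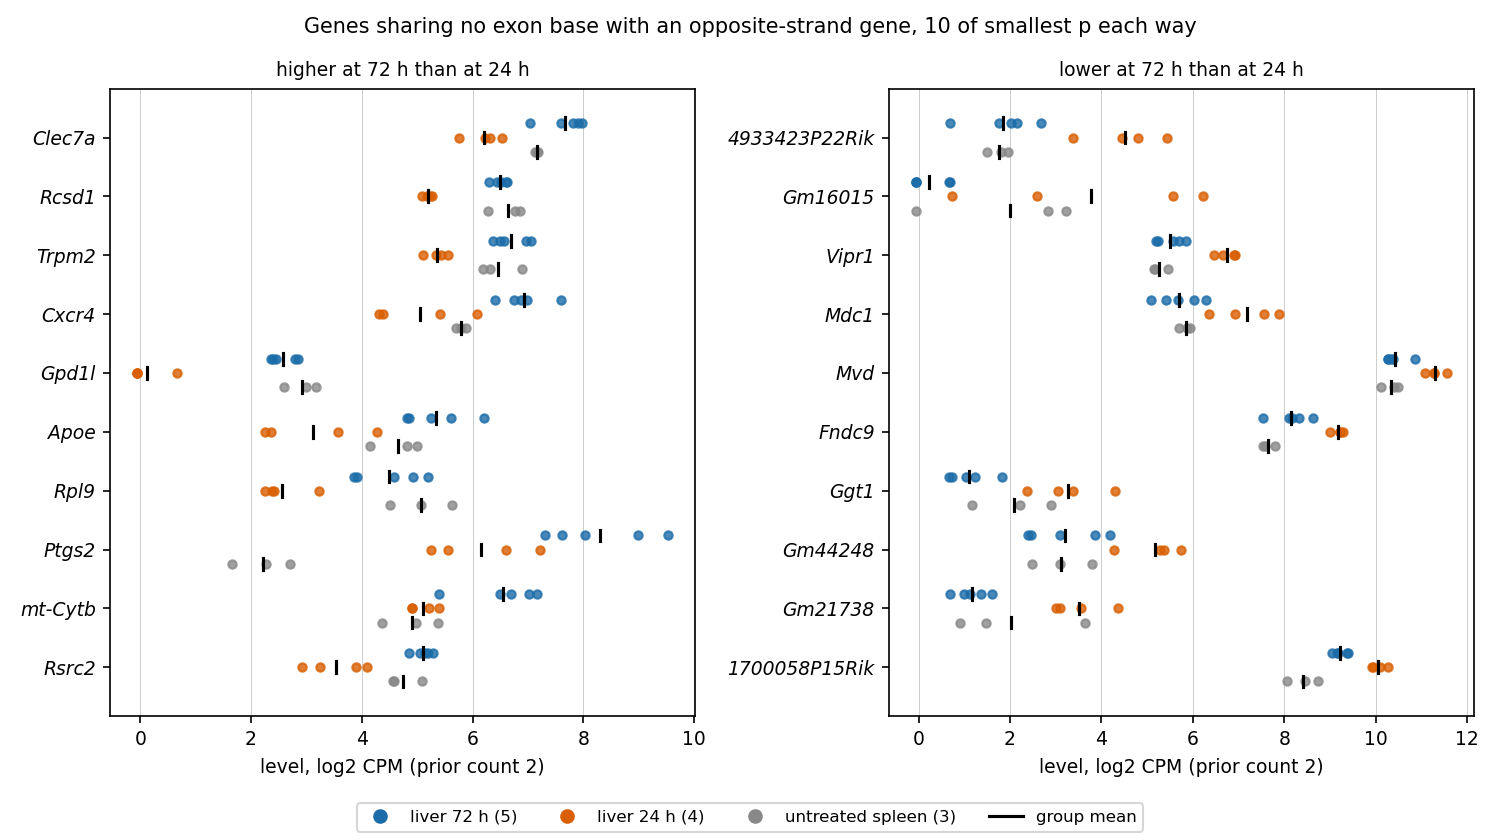
Level in log2 CPM (horizontal axes, prior count of 2) of the 10 leading genes that rose and the 10 that fell without shared exon bases, 1 point per library of the 72-hour, 24-hour and control splenic neutrophils, with a bar at each group mean. On the CPM scale the 72-hour points of Clec7a lie from 130 to 251 CPM above 24-hour points of 53.0 to 91.2 CPM, while those of Vipr1 lie from 35.7 to 57.0 CPM below 24-hour points of 86.8 to 121 CPM.

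Early response and AP-1 genes, which neutrophils switch on within minutes of a stimulus, rose in part. In the AP-1 and ATF list 3 of 24 tested members rose and 0 fell (12.5%, against 4.49% called over all tested genes). The list median was 0.24, near the 0.18 of all tested genes. Fos was at 213, 303, 279 and 345 CPM at 24 hours and at 486, 703, 874, 511 and 554 CPM at 72 hours (1.13, edgeR adjusted p = 0.0195), without overlap. Fosb differed by 2.19 (adjusted p = 0.0315) and Atf3, a stress-induced repressor of inflammatory genes, by 2.03 (adjusted p = 0.0266), both with overlapping groups. Of 30 tested early response genes, 3 rose (10%) and 0 fell, at a median of 0.35. Those that rose were Btg2 and Btg1, which restrain growth, and Rgs2, which dampens G protein signals. Btg2 differed by 1.06 (adjusted p = 0.0244), Rgs2 by 1.01 (adjusted p = 0.0106) and Btg1 by 0.66 (adjusted p = 0.0483). Fosb and Atf3 were also called under class-wise scaling, whereas the early response genes and Fos (adjusted p = 0.0761) were not. Without 72-hour replicates 2 and 3 the early response median was -0.01 and none of these genes was called. Leaving out 24-hour replicate 1 raised the adjusted p of Fos to 0.0836, of Fosb to 0.105, of Atf3 to 0.0953, of Rgs2 to 0.0512 and of Btg1 to 0.128, and leaving out 72-hour replicate 3 that of Btg2 to 0.082. The 72-hour libraries differed widely for these genes, with Btg2 at 288 and 388 CPM in replicates 2 and 3 and 156 to 183 CPM in the others. Junos, opposite Jun and not a list member, fell from a mean of 1923 to 1042 CPM (-0.88, edgeR adjusted p = 0.0192, class-wise 0.0495). Jun was listed at a mean of 54.8 CPM at both times (0.01, adjusted p = 0.992).

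Other receptors moved as single genes rather than as lists. Among 31 tested Toll-like and C-type lectin receptors, Clec7a and Clec12a rose and 0 fell (6.45%, against 4.49% called over all tested genes). Clec12a, an inhibitory lectin of myeloid cells, differed by 2.01 (edgeR adjusted p = 0.0258, class-wise 0.0471) at levels below 20 CPM. Itgax, the integrin chain CD11c, was at 3.78, 13.2, 14.1 and 17.5 CPM at 24 hours and 53.1, 47.7, 66.9, 46.5 and 23.4 CPM at 72 hours (1.98 ± 0.42, edgeR adjusted p = 0.00958, class-wise 0.0146). It was the only called member of 22 tested adhesion genes. Csf3r, the receptor for granulocyte colony-stimulating factor and the only called gene of 29 abundant mature neutrophil transcripts, differed by 0.77 (adjusted p = 0.0241), but its class-wise p was 0.191. Pmaip1, which encodes the death-promoting protein Noxa, was the only called gene of 25 survival and apoptosis genes (1.40, adjusted p = 0.0232, class-wise 0.0499). Slc2a3, a glucose transporter, rose by 0.86 (adjusted p = 0.0381), a call lost under class-wise scaling (adjusted p = 0.147). Without 24-hour replicate 1 the adjusted p was 0.0871 for Clec12a and 0.0705 for Csf3r, without 24-hour replicate 2 it was 0.0877 for Pmaip1, and without 24-hour replicate 3 it was 0.0935 for Slc2a3. Itgax passed in all 12 such fits.

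Lists without any call at 72 against 24 hours included several that mark neutrophil function. Over all tested genes 4.49% were called, so 0 calls in lists of 9 to 51 genes lie near that share. None of 11 chemokines passed edgeR's test, although 9 lay above zero and the list median was 0.79. Cxcl2, a neutrophil attractant, was at 117 to 232 CPM at 24 hours and 222, 544, 653, 65.3 and 190 CPM at 72 hours (0.93, adjusted p = 0.200), so replicates 2 and 3 were high and replicate 4 was below every 24-hour library. Ccl6 differed by 0.83 (adjusted p = 0.133). Of 32 interferon-stimulated genes 29 lay above zero, at a median of 0.39, and none passed. Ifit3 was nearest among those named, with 1.46 to 8.49 CPM at 24 hours and 16.3, 21.8, 36.8, 2.08 and 5.19 CPM at 72 hours (1.91, adjusted p = 0.0825). NADPH oxidase genes gave 0 calls of 9, with Cybb at a difference of -0.98 (adjusted p = 0.121). The 25 angiogenic, TGF-beta and repair factors and the 51 Rab genes also held no call, at medians of 0.31 and 0.10. Some genes opposite members of these lists did pass. Gtf2ird2, opposite Ncf1, fell from a mean of 22820 to 13171 CPM (edgeR adjusted p = 0.0247, class-wise 0.075). Daglb, opposite Rac1, fell from 2175 to 1129 CPM (adjusted p = 0.00224, class-wise 0.00732). Ncf1 (0.37, adjusted p = 0.466) and Rac1 (0.11, adjusted p = 0.805) did not pass. Over all genes, 2616 had an unadjusted p below 0.05.

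Most cytosolic ribosomal protein and translation factor genes lay above zero, with few single calls, and mitochondrial ribosomal protein genes were divided. Of 82 tested cytosolic ribosomal protein genes 74 lay above zero, 11 rose (13.4%) and 0 fell, while 4.49% of all tested genes were called. The list median was 1.25 against 0.18 for all tested genes. In CPM summed over the list, the times overlapped, at 908 to 1342 CPM at 24 hours and 1279 to 1872 CPM at 72 hours. Class-wise scaling left 6 calls and a median of 1.13, and the median stayed between 1.10 and 1.64 under every scaling, filter, tool and left-out library tried, where 2 to 33 members were called. The low end of 2 came without 24-hour replicate 1 and also when only genes with no opposite-strand gene in their span were fitted, 5 were called without 24-hour replicate 2, 6 without each of 24-hour replicate 4 and 72-hour replicates 1 and 3, 7 without the spleen library numbered 2, and 4 without 72-hour replicates 2 and 3 together. Rpl9, part of the large subunit, was counted at 3.78, 8.40, 4.24 and 4.38 CPM at 24 hours and at 14.1, 13.5, 29.4, 22.9 and 35.7 CPM at 72 hours (2.12 ± 0.41, edgeR adjusted p = 0.00628, class-wise 0.012). No 24-hour library reached the lowest 72-hour library. Rps3a1 (2.02), Rpl11 (1.74) and Fau (1.47) were called under both scalings, and so was Rps28 (2.81), which shares 88 exon bases with Kank3. Spleen libraries of Rpl9 stood at 21.9 to 48.6 CPM. Ribosomal protein genes have many near-identical pseudogene copies, so their counts may be split and are uncertain. Of 36 translation factors 34 lay above zero at a median of 0.86, with Eif3a (1.36) and Eif5 called and only Eif3a also under class-wise scaling. The summed level of the translation factors overlapped too, at 779 to 885 CPM at 24 hours and 850 to 1322 CPM at 72 hours. Of 48 mitochondrial ribosomal protein genes 31 lay above zero at a median of 0.51 (class-wise 0.44), 1 rose (Mrpl9, adjusted p = 0.0463) and 1 fell (Mrpl48, adjusted p = 0.00822). Their summed level was lower at 72 hours, at 1697 to 2043 CPM against 2453 to 2889 CPM at 24 hours, without overlap.

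Mitochondrial transcripts moved the same way. Of 8 tested genes of the respiratory chain encoded in mitochondrial DNA all lay above zero, at a median of 1.31. Of these, 5 rose (62.5%, against 4.49% called over all tested genes) and 0 fell. mt-Cytb, the cytochrome b of complex III, was at 29.0, 36.0, 29.0 and 40.9 CPM at 24 hours and 41.2, 89.5, 143, 103 and 129 CPM at 72 hours (1.59 ± 0.32, edgeR adjusted p = 0.00735, class-wise 0.0146). Its 72-hour replicate 1 was level with the highest 24-hour library and the other 4 were well above. mt-Co1 (1.53, adjusted p = 0.0163) was also called under both scalings, while mt-Nd1, mt-Nd2 and mt-Nd4 were not called under class-wise scaling (adjusted p = 0.0599 for mt-Nd1). Only 1 of the 8 was called without 24-hour replicate 1, 2 without each of 24-hour replicate 2 and 72-hour replicates 2, 3 and 5, and 3 without each of the spleen libraries numbered 1 and 2. The 78 tested nuclear-encoded respiratory genes had a median of 0.88 with Cox8a alone called (2.16, adjusted p = 0.0446, class-wise 0.0964). In CPM summed over the list, however, the nuclear-encoded genes went from 1141 to 1368 at 24 hours to 944 to 1120 at 72 hours. In bulk samples a larger amount of RNA per cell and a larger share of cells that carry it cannot be told apart.

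**Figure D3:**
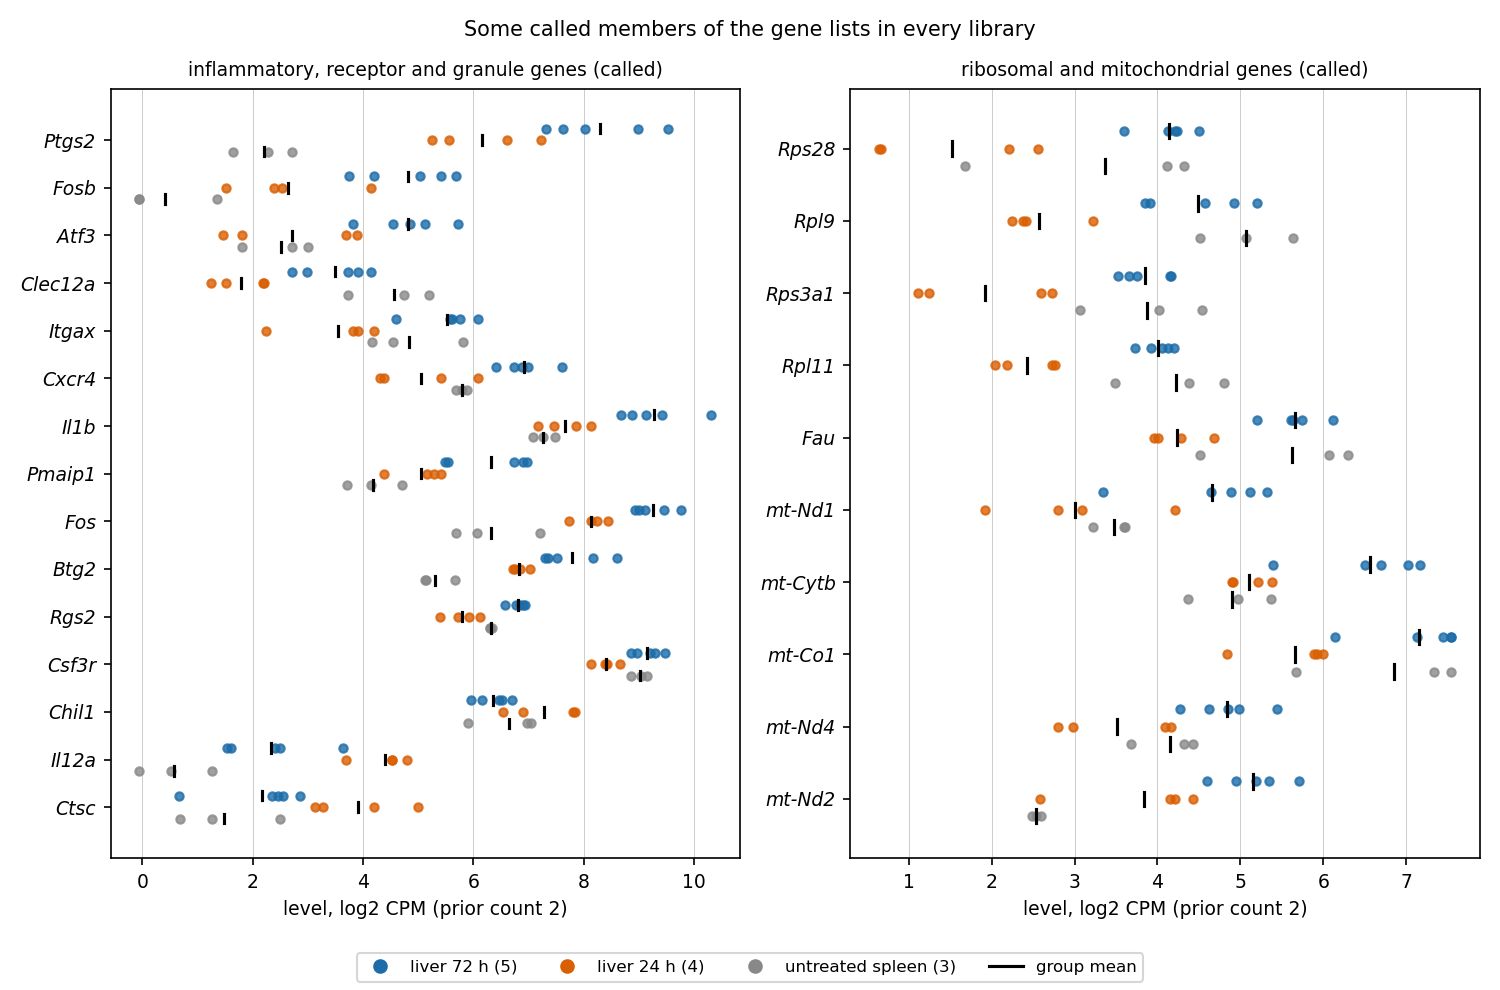
Level in log2 CPM (horizontal axes, prior count of 2) of some called members of the gene lists, with 1 point per library of the 72-hour, 24-hour and control splenic neutrophils and a bar at each group mean. The 72-hour means of the ribosomal and mitochondrial genes shown all lie to the right of the 24-hour means, while points of single genes such as Fosb and mt-Nd1 overlap between the times.

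**Figure D4:**
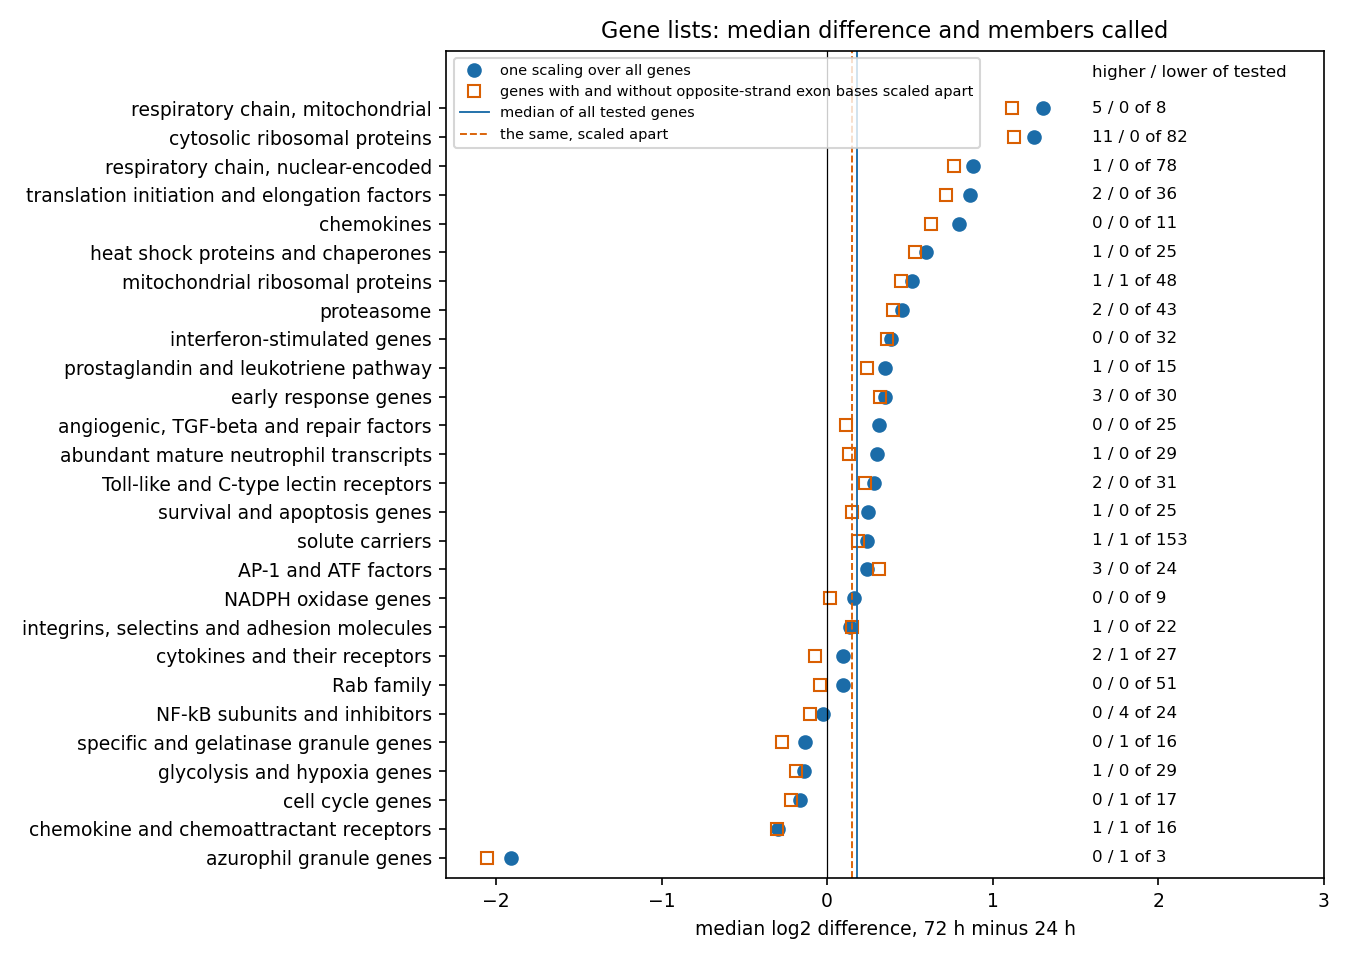
Median log2 difference of 72-hour minus 24-hour neutrophils for each gene list other than the cell type markers, with a single scaling (filled circles) and with the strand classes scaled apart (open squares), beside the members that rose and fell of those tested. Medians run from -1.91 for 3 azurophil granule genes to 1.31 for 8 mitochondrial respiratory genes, and the vertical lines give the medians of all tested genes.

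Apoe, the apolipoprotein E gene, which macrophages and hepatocytes make in quantity (chr7:19696109-19699188, minus strand), was at 3.78, 4.20, 18.4 and 10.9 CPM at 24 hours and 47.7, 37.3, 73.0, 27.8 and 27.3 CPM at 72 hours. The groups did not overlap and the difference was 2.22 ± 0.43 (edgeR adjusted p = 0.00624, class-wise 0.012). Spleen libraries held 16.7 to 30.8 CPM. Beside it, the macrophage markers summed to 154 to 236 CPM at 24 hours and 155 to 268 CPM at 72 hours, with 6 to 7 of 14 detected. Of these markers Apoe rose and Cd163, a scavenger receptor, fell (-2.92, adjusted p = 0.0318) and did not pass when any 1 of 4 libraries was left out (adjusted p = 0.0935 without 24-hour replicate 2). The hepatocyte markers summed to 16.3 to 20.2 CPM at 24 hours and 5.19 to 39.6 CPM at 72 hours, with 2 to 4 and 3 to 11 of 14 detected, and none of 6 tested was called. Their median was 1.98 (class-wise 1.78), with 5 of the 6 above zero, while under class-wise scaling Fgg (adjusted p = 0.0386) passed upward and Apoa2 (adjusted p = 0.0403) downward. T and NK cell and erythroid markers summed to at most 7.07 CPM in any liver library. Platelet and megakaryocyte markers summed to 120 to 231 CPM at 24 hours and 141 to 308 CPM at 72 hours. Endothelial and stellate cell markers summed to 32.8 to 59.1 CPM and 41.5 to 66.7 CPM. Eosinophil and mast cell markers summed to 8.49 to 17.4 CPM and 14.9 to 32.4 CPM. The part of other cells in the Apoe difference was not tested. Gpd1l, a glycerol phosphate dehydrogenase relative, had 1 count in 24-hour replicate 1, none in the other 24-hour libraries and 4.17 to 6.22 CPM in every 72-hour library (edgeR adjusted p = 0.00452). Rcsd1, a regulator of actin capping, rose by 1.33 ± 0.22 from 32.8 to 37.5 CPM at 24 hours to 77.8 to 98.1 CPM at 72 hours (adjusted p = 0.0019). Rsrc2 rose by 1.56 (adjusted p = 0.00745). These 4 genes passed without each library in turn.

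Among the genes that fell without an opposite-strand exon and without overlap of the groups, 4933423P22Rik and Gm16015 had the smallest p and are described with their hosts, and Vipr1, Mdc1 and Mvd came next. Vipr1 encodes a receptor for vasoactive intestinal peptide, a neuropeptide that calms myeloid cells (chr9:121642716-121672954, plus strand). In 24-hour neutrophils it was at 100, 121, 118 and 86.8 CPM, and in 72-hour neutrophils at 36.9, 50.8, 46.1, 57.0 and 35.7 CPM. The groups were well apart, with spleen libraries at 34.3 to 43.1 CPM, and the gene fell by 1.23 on the log2 scale (SE 0.22, edgeR adjusted p = 0.00396, class-wise 0.00379). Mdc1, a scaffold of the DNA damage checkpoint (chr17:35841515-35859670, plus strand), went from 186, 237, 81.3 and 120 CPM to 33.1, 77.7, 41.5, 64.6 and 50 CPM and fell by 1.55 (adjusted p = 0.00452). Here 24-hour replicate 3 stood only just above 72-hour replicate 2. Mvd, the mevalonate diphosphate decarboxylase of cholesterol synthesis (chr8:122433601-122443422, minus strand), was among the highly counted genes at 2155 to 3019 CPM at 24 hours and 1238, 1851, 1320, 1239 and 1283 CPM at 72 hours. It fell by 0.87 (adjusted p = 0.00799), with a gene on the other strand, Gm20388, spanning it. Ggt1, which breaks down extracellular glutathione, fell by 3.03 (adjusted p = 0.00942), from 4.24 to 18.6 CPM to 0.619 to 2.60 CPM. Gm21738 fell by 3.06 (adjusted p = 0.0116). The calls of Vipr1, Mdc1 and Mvd held without each library in turn, and that of Ggt1 was lost without 24-hour replicate 2 (adjusted p = 0.0562).

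A further group that fell without shared exon bases lies inside another gene on the other strand. 4933423P22Rik (chr2:90479236-90488425, plus strand) lies in the span of Ptprj, a receptor phosphatase of leukocytes. It was at 20.8, 42.6, 26.9 and 9.48 CPM at 24 hours and at 5.42, 2.42, 3.10, 3.47 and 0.649 CPM at 72 hours, and fell by 3.03 (edgeR adjusted p = 0.00144, class-wise 0.00039). Ptprj itself fell by 1.26 (adjusted p = 0.0399). Fndc9, inside Cyfip2, was at 513 to 620 CPM at 24 hours and 185 to 398 CPM at 72 hours and fell by 0.99 (adjusted p = 0.00807), while Cyfip2 differed by 0.18 (adjusted p = 0.798). 1700058P15Rik, inside Vasp, fell by 0.83 (adjusted p = 0.0116) while Vasp, an actin regulator, differed by -0.18 (adjusted p = 0.717). Gm44248, inside Klra17, fell by 1.95 (adjusted p = 0.0112, but 0.0572 without 24-hour replicate 1). For each of these hosts the reads of both strands cannot be told apart.

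List members that fell were few. Il12a, the p35 chain of interleukin 12, was at 22.1, 22.2, 12 and 27.0 CPM at 24 hours and 4.34, 11.4, 4.64, 2.08 and 1.95 CPM at 72 hours, and was at 0 to 1.45 CPM in spleen. It fell by 2.0 (SE 0.50, edgeR adjusted p = 0.0257, class-wise 0.0146), with 24-hour replicate 3 close to 72-hour replicate 2. Cytokines and their receptors gave 2 that rose and 1 that fell of 27 tested (11.1%, against 4.49% called over all tested genes), at a median of 0.10. Ctsc, the protease that activates neutrophil serine proteases, fell by 2.05 (adjusted p = 0.0448) and was 1 of 3 azurophil granule genes tested. Chil1, a specific granule protein, fell by 1.0 (adjusted p = 0.0463) among 16 granule genes, with the difference resting mostly on 24-hour replicates 1 and 2. Of 24 tested NF-kB subunits and inhibitors 4 fell (16.7%) and 0 rose, at a median of -0.02. Over all tested genes 2.84% fell, and of genes with shared exon bases 5.65%. Those that fell were Ikbkg, which encodes the kinase scaffold NEMO (-1.55, adjusted p = 0.00745), and Nfkbib, an inhibitor (-1.36, adjusted p = 0.0135). The others were Nkiras2 (-1.24, adjusted p = 0.0441) and the subunit gene Nfkb2 (-0.99, adjusted p = 0.0329). All 4 share exon bases with an opposite-strand gene, and Ikbkg and Nfkbib alone were also called under class-wise scaling. Nfkb2 was at a mean of 60.7 CPM at 24 hours and 30.2 CPM at 72 hours. Psd, which shares 299 exon bases with it, was at 760 and 449 CPM and also fell (-0.76, edgeR adjusted p = 0.0258, class-wise 0.0585). Reads of this pair cannot be told apart. Without 24-hour replicate 1 the adjusted p was 0.0742 for Il12a, 0.195 for Ctsc and 0.111 for Nkiras2, and without 24-hour replicate 2 it was 0.162 for Chil1 and 0.108 for Nfkb2.

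Most genes that fell share exon bases with a gene on the other strand. Of the 281, 114 were annotated as antisense. Antisense genes as a whole fell in 123 of 985 cases (12.5%) and rose in 3, whereas 2.84% of all tested genes fell and 1.65% rose. The antisense median was -0.38 with TMM scaling and turned to 0.06 with scaling by library size alone. Class-wise scaling left 84 antisense genes lower. Leaving out 24-hour replicate 1 left 53, and leaving out 72-hour replicate 3 left 73. A tested partner was found for 265 of the 281 genes. Partners lay below zero in 146 cases and above in 119, at a median of -0.09, with 18 called lower and 0 higher. Of all tested genes with shared exon bases 5.65% fell and 1.17% rose, so the partner calls lie near the share of their class. Per kilobase of exon, 247 of the 265 genes stood above their partner at 24 hours, with medians of 214 and 4.94 CPM per kilobase.

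**Figure D5:**
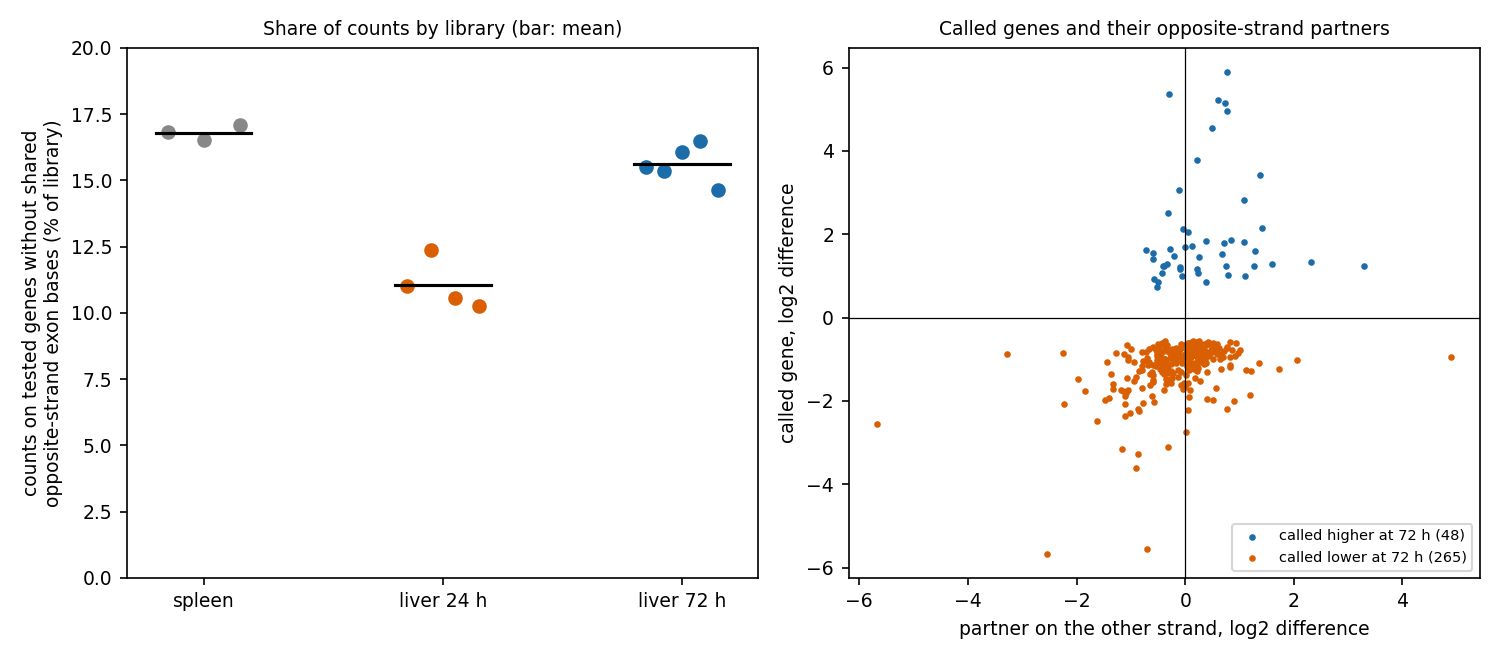
Left, the share of counts on genes without shared exon bases, 1 point per library with a bar at the group mean; right, the log2 difference of each called gene with shared bases (vertical axis) against that of its opposite-strand partner (horizontal axis). The share is 10.2 to 12.4% in 24-hour and 14.6 to 16.5% in 72-hour neutrophils, and partners of the genes that fell scatter on both sides of zero at a median of -0.09.

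Gm26669 had the smallest p of all (chr12:80108034-80113000, plus strand). It shares 1672 exon bases with Zfp36l1, which encodes a protein that speeds the decay of inflammatory messenger RNAs. In 24-hour neutrophils it was at 20002, 17001, 13898 and 19327 CPM and in 72-hour neutrophils at 6677, 8258, 5371, 4367 and 7109 CPM, a fall of 1.47 (SE 0.19, edgeR adjusted p = 0.000798, class-wise 0.00633). All 24-hour libraries were far above all 72-hour libraries, and spleen libraries were at 2007 to 2484 CPM. Zfp36l1 was listed at 82.0 to 198 CPM at 24 hours and 70.6 to 138 CPM at 72 hours (-0.26, adjusted p = 0.597). Gm12868, opposite the glucose transporter gene Slc2a1, was at 2274, 1807, 1159 and 1572 CPM and then at 449, 518, 455, 538 and 813 CPM, and fell by 1.62 (adjusted p = 0.000885), while Slc2a1 differed by -0.65 (adjusted p = 0.155). Gm28033, opposite Ppp1r18, fell by 1.35 (adjusted p = 0.00133) and Gm37655, opposite Dennd1b, by 2.23 (adjusted p = 0.00117). The partners Ppp1r18 (-0.65, adjusted p = 0.087) and Dennd1b (0.05, adjusted p = 0.964) did not pass. These 4 genes that fell were called without each library in turn and under class-wise scaling.

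Several genes that fell lie opposite genes of neutrophil signalling, and the 4 antisense genes that follow were chosen after their values were seen. Gm20319, opposite Il1rap, the shared chain of the interleukin 1 receptor, was at 6196, 4163, 2185 and 3157 CPM at 24 hours and 896, 1137, 494, 1373 and 1389 CPM at 72 hours and fell by 1.89 (edgeR adjusted p = 0.00133). Il1rap was listed at 26.2 to 73.8 CPM and 19.2 to 56.5 CPM (-0.60, adjusted p = 0.315). Gm44876, opposite Il4ra, the interleukin 4 receptor chain, fell by 1.48 (adjusted p = 0.00184), Gm15283, opposite the hypoxia factor gene Hif1a, by 1.69 (adjusted p = 0.00144), and Gm19719, opposite Alox5ap of leukotriene synthesis, by 1.2 (adjusted p = 0.00414). None of the 3 partners passed. Gm19719 was counted at 17642 to 32656 CPM at 24 hours and 9139 to 14666 CPM at 72 hours. Cxcr5, a chemokine receptor gene best known from B cells, shares 110 exon bases with Bcl9l and was at 795, 788, 429 and 493 CPM at 24 hours and 118, 203, 82.9, 165 and 249 CPM at 72 hours, a fall of 1.94 (SE 0.29, adjusted p = 0.00144). B cell markers summed to 39.6 to 73.2 CPM at 24 hours and 39.4 to 59.1 CPM at 72 hours. Cdk4, which shares 641 exon bases with Tspan31, fell by 1.71 (adjusted p = 0.0116, but 0.0567 without 24-hour replicate 1).

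Genes with shared exon bases that rose were led by Il1b and Sec62. Sec62, of the translocation channel of the endoplasmic reticulum, shares 509 exon bases with 4933429H19Rik and was at 19.6, 11.4, 7.78 and 10.9 CPM at 24 hours and 48.3, 26.9, 47.4, 50.7 and 43.5 CPM at 72 hours (1.79 ± 0.33, edgeR adjusted p = 0.00438). Its partner differed by 0.71 (adjusted p = 0.205). Jaml, an adhesion molecule of neutrophils that bind epithelium, rose by 1.45 (adjusted p = 0.00897) from 15 to 32.5 CPM to 41.2 to 88.9 CPM. Cyp4f18, which degrades leukotriene B4, rose by 1.22 (adjusted p = 0.013) from 13.9 to 19.0 CPM to 28.5 to 43.5 CPM. All 3 were without overlap and were called under class-wise scaling. The call of Cyp4f18 was lost, at adjusted p = 0.05, without 24-hour replicate 1. 4833420G17Rik rose by 2.50 (adjusted p = 0.0145, but 0.0527 without 24-hour replicate 2).

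Of the 561 calls, 22 were marked as leaning on a pair of the 24-hour libraries. In these the mean log2 CPM of the 2 24-hour libraries nearest the 72-hour mean differed from it by less than 0.5. The mark also takes in small, even shifts. Gm17315 was marked at 229 to 282 CPM at 24 hours and 154 to 178 CPM at 72 hours. Over all 561 calls, 4 24-hour libraries lay outside the 72-hour range in 473, 3 in 71, 2 in 11 and fewer in 6. Among the 22 marked genes, Fyb rose and 21 fell. The 24-hour libraries farthest from the 72-hour mean were replicates 1 and 2 for 9 of the 22 and replicates 1 and 4 for 5. They were replicates 3 and 4 for 4, replicates 2 and 3 for 2, and replicates 2 and 4 for 2. These libraries were the high ones in the genes that fell and the low ones, replicates 2 and 3, in Fyb. In 6 of the 22 no exon base was shared: Cd38, Mmp25, Cmas, Chil1, Gm10800 and Gm10801. Gm10800 and Gm10801 leaned mostly on 24-hour replicate 4. Gm10800 was at 0.631, 13.2, 4.95 and 154 CPM at 24 hours and 0.695 to 6.51 CPM at 72 hours. Gm10801 was at 0, 2.40, 0.707 and 16.0 CPM at 24 hours and at 0 CPM in every 72-hour library. Without replicate 4 their edgeR adjusted p was 0.697 and 0.199. Cd38, the NAD-consuming surface enzyme of activated leukocytes, was at 76.3 and 51.0 CPM in 24-hour replicates 1 and 2 and at 0.707 and 2.19 CPM in replicates 3 and 4, against 0.695 to 3.25 CPM at 72 hours (-3.93, edgeR adjusted p = 0.013, but 0.0821 without replicate 1). Gm16015, inside Cd38 on the other strand, had 46.7, 73.2, 0.707 and 5.11 CPM at 24 hours and at most 0.649 CPM at 72 hours (adjusted p = 0.00224). Tmem198b, opposite Mmp19, was at 753, 654, 24.0 and 43.8 CPM at 24 hours and 4.33 to 11.7 CPM at 72 hours, and fell by 5.55 (adjusted p = 0.000798). St8sia1, a ganglioside sialyltransferase gene, was at 201, 159, 7.07 and 10.9 CPM at 24 hours and at 0 to 2.60 CPM at 72 hours (adjusted p = 0.000885). In Gm16015, Tmem198b and St8sia1 the 24-hour replicates 1 and 2 carried most of the level, yet replicates 3 and 4 were also above the 72-hour libraries. For Gm16015 replicate 3, at 0.707 CPM against at most 0.649 CPM, this held only under the floor of 3 counts. These 3 genes were not marked, since the mean of their 2 nearest 24-hour libraries differed from the 72-hour mean by at least 0.5.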

How the data were processed

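The authors deposited raw read counts per gene, made with HTSeq-count 0.6.1p1 from paired reads of 100 bases aligned to GRCm38 (STAR 2.7.9a in the submitters' processing notes). The strand option and the annotation release are not given in the sources used here. The 5 summary rows entered neither library sizes nor tests (96.8 to 97.3% of uniquely aligned liver reads were on no feature). Genes above 1 CPM in at least 3 of the 12 libraries were kept (12488 of 48709) and TMM-scaled, and 72 against 24 hours was tested within a fit of all 12 libraries with edgeR 4.0.16 (R 4.3.3), after a check on simulated data. That fit follows the filter and scaling of the study, whose own tool, limma-voom (limma 3.58.1), was an alternative beside DESeq2 1.42.0. Calls needed a Benjamini-Hochberg adjusted p below 0.05 and a log2 difference of at least 0.5, and a level of 3 counts was the floor. SE is that of the fitted log2 difference. Total counts per liver library were 1267089 to 3017403, so low genes rest on few counts. Opposite-strand exon bases came from GENCODE M21, matched by identifier for 48349 genes.

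The named genes were the 10 with the smallest p each way without, and the 6 each way with, shared exon bases, without overlap of the groups, plus every called member of a gene list, up to 4 uncalled members of lists without a call, and the partner sharing most exon bases. Some genes that meet this rule are not reported here. The members and lists were chosen with earlier results of these data known. Alternatives were other scalings, filters and tools, a replicate block, liver libraries alone, and each library left out. Class-wise scaling and the fit of genes with no opposite-strand gene in their span were added after seeing the data. Whether equal replicate numbers pair the libraries is not known. Deviations of equally numbered libraries from their group means correlated at -0.07 to 0.02, without a comparison to unequal numbers. Promoters came from the RefSeq table of GRCm38.p6.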

Additional observations from a re-analysis of the deposited data

Results flagged for a closer look

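Among 174 groups of 4 or 5 libraries checked, 7 had 1 library far from the others, judged by its gap to the nearest library as a share of the group's range, and chance gives about 1 in 20. At 24 hours, replicate 1 was lowest for mt-Co1 (gap 0.903 of the range) and for mt-Nd2 (0.851), and was the single library with a count of Gpd1l (1 count, 1.0 of the range). In 72-hour neutrophils, replicate 2 was highest for Mvd (0.840) and lowest for Sec62 (0.755), and replicate 3 was lowest for Ctsc (0.773). The share of reads that matched more than 1 gene was 0.227% in 24-hour replicate 4 against a group median of 0.0242% (0.978 of the range). mt-Co1 and Sec62 were called in the same direction under class-wise scaling, and mt-Nd2 was not called.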

How the results depend on the processing

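Of 80 named genes, 31 kept their call in all 12 fits that left out 1 library and 23 under every setting tried, and none changed direction. Against 561 calls (206 up, 355 down), scaling by library size alone gave 1409 (1295 up, 114 down) and DESeq2's Wald test 951 (351 up, 600 down). Without a filter 346 genes rose, and at a log2 limit of 1, 210 fell. Keeping only genes without shared exon bases gave 143 (53 up, 90 down) and only genes with no opposite-strand gene in their span 70 (23 up, 47 down). Without 72-hour replicates 2 and 3 there were 203 (56 up, 147 down), and without replicates 4 and 5, 854 (332 up). Leaving out 1 library gave 178 to 775 calls, 49 to 295 up and 129 to 480 down. The antisense median became 0.055 with scaling by library size alone, and the early response median -0.014 without 72-hour replicates 2 and 3. The causes were not tested beyond the smaller number of genes or libraries in some fits. A replicate block among the liver libraries gave 686 calls (255 up, 431 down), of which 433 were among the 561, although pairing by number is not known. limma-voom gave 560 (163 up, 397 down). At 1.37 to 3.24 counts per CPM, genes of a few CPM rest on a handful of counts.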

Other observations

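Genes of RNA splicing were chosen after their values were seen. Of 57 tested members of the Srsf, Snrnp, Snrp, Sf3a, Sf3b, Hnrnp and Luc7l families, 52 lay above zero at 72 hours. Among the 57, 7 rose and 0 fell, at a median log2 difference of 0.67. Over all tested genes 1.65% rose and 2.84% fell, at a median of 0.18. Under class-wise scaling 9 of the 57 were called at a median of 0.78, against 437 of 12457 genes at a median of 0.15. Snrnp70, of the U1 particle, was at 59.3, 81.0, 43.8 and 32.1 CPM at 24 hours and 137, 142, 170, 93.8 and 110 CPM at 72 hours (1.27, edgeR adjusted p = 0.00822). Luc7l3 differed by 1.32 (adjusted p = 0.0139) and Sf3b1, the branch point factor, by 0.94 (adjusted p = 0.0301, and 0.103 under class-wise scaling).

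A few single genes, also chosen after their values were seen, rose without shared exon bases. Cd101, an inhibitory receptor of mature neutrophils, was at 13.8 to 40.1 CPM at 24 hours and 58.0 to 101 CPM at 72 hours (1.57, edgeR adjusted p = 0.00822). Tyrobp, the adaptor DAP12, differed by 1.02 (adjusted p = 0.0106), Fgl2 by 1.05 (adjusted p = 0.0139) and B2m by 1.17 (adjusted p = 0.0181), and of these 4 genes only Cd101 was called under class-wise scaling. Csf2rb2, a receptor chain for interleukin 3, fell by 1.43 (adjusted p = 0.021), and Gpx3, an antioxidant enzyme, by 1.11 (adjusted p = 0.0197). Prok2, a chemoattractant peptide gene, was at 27.8, 30.6, 1.41 and 4.38 CPM at 24 hours and at 0 to 4.54 CPM at 72 hours (adjusted p = 0.0238), so its level rested mostly on 24-hour replicates 1 and 2.

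Some genes split the replicates of 1 time by a gap of at least 3 on the log2 scale. In 72-hour neutrophils 10 genes were high in replicates 1, 2 and 3 and low in replicates 4 and 5, and 4 of them were called. Spopl was at 657, 702 and 608 CPM against 9.03 and 6.49 CPM, with 6.57 to 12.7 CPM at 24 hours and 783, 903 and 2.89 CPM in the 3 spleen libraries. 2010001K21Rik and A730017L22Rik split the 72-hour libraries in the same way. In 24-hour neutrophils 4 genes were high in replicates 1 and 2 (Cd38, St8sia1, Tmem198b and Usp38). CT010467.1, annotated as ribosomal RNA, was at 3329, 2134 and 3039 CPM in 24-hour replicates 1 to 3 and at 67845 CPM in replicate 4, against 734 to 4056 CPM at 72 hours (-3.15, edgeR adjusted p = 0.0192). What these splits reflect was not tested.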
